A study of Homo sapiens with 18 samples.

Results

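The FOS and JUN family was followed as 7 genes, FOS, FOSB, FOSL1, FOSL2, JUN, JUNB and JUND, out of 34255 genes to which the deposited transcript counts could be summed. The members are the genes of these names, and all 7 were among the 15519 genes that passed the filter on low counts. HEK293 cells, a human embryonic kidney line, were studied as wildtype cells, as β-arrestin1/2 KO cells and as Gαs KO cells, both KO lines made by CRISPR-Cas9. Cells of all 6 groups carried a plasmid for the HA-tagged β2 adrenergic receptor (β2AR) and were serum starved overnight. At 48 h after transfection they received vehicle (basal) or 1 µM isoproterenol, a β-adrenergic agonist, for 1 h, and each group had 3 libraries. Whether the cells' own receptor added to that from the plasmid was not tested, and the labels do not say how many KO clones were used.

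Proteins of the FOS and JUN families carry a basic region and a leucine zipper, and together they form the dimers of the transcription factor AP-1. JUN proteins can pair with each other or with FOS proteins, whereas FOS proteins bind DNA mainly as partners of JUN proteins. Most members are immediate early genes, whose RNA can rise within an hour of a stimulus without new protein synthesis. β2AR couples to Gαs, which activates adenylyl cyclase and so protein kinase A, and this kinase phosphorylates CREB, a factor that binds the cAMP response element (CRE) in the promoter of FOS and other genes. β-Arrestins bind the activated receptor, end its coupling to the G protein and can act as scaffolds for MAP kinases.

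The libraries held 17908597 to 25019834 counts. GNAS, which encodes Gαs, had 61.3 to 71.3 CPM (counts-per-million, scaled by TMM factors of edgeR) in the 6 Gαs KO libraries and at least 1067 in each wildtype library. ARRB2 (β-arrestin2) had 15.2 to 23.0 CPM in β-arrestin1/2 KO libraries and at least 79.8 in wildtype libraries, while ARRB1 (β-arrestin1) had 37.9 to 43.5 against 38.5 to 65.3 CPM, so its transcript level overlapped between these lines. Of 8 genes used to check for HEK293 cells, 5 exceeded 1 CPM in every library, and PAX2, LHX1 and NEFM did not. Of 6 markers of other cell types, 4 stayed under 1 CPM in every library, while CDH5 reached 1.415 and LUM 2.146 CPM. PAX2 and NEFM, at 0.8997 to 3.564 and 0.7573 to 2.467 CPM, were thus near the level of LUM. Wildtype basal replicate 1 stood apart, with a mean GC content of 52.5% against 49.2 to 50.1% in the others and 58605 transcripts with a count against 67569 to 76468. The members' log2 fold changes that rest on it are given with and without it. In bulk RNA, fewer responding cells and less RNA per cell cannot be told apart.

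The promoters are shown because 6 of the 7 genes had a RefSeq promoter (GRCh38.p14), and each of these 6 held the CRE half-site TGACG, on either strand, in the 250 bases before the annotated start. By comparison, 21.2% of 35116 promoters had it in a window of this length. The match is a description of these letters and no evidence of binding. Capitals mark the half-site in the stretches that follow, which begin 150 bases before the RefSeq start (135 for JUN) and stop before any protein-coding transcript begins, or show 30 bases around the site for JUN.
FOS (chr14:75278678-75278773, plus strand): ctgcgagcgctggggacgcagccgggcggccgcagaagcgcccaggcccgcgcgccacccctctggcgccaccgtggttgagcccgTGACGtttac
FOSB (chr19:45467846-45467994, plus strand): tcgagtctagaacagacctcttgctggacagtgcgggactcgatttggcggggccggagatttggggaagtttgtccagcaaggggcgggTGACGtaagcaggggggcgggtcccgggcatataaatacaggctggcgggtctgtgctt
FOSL2 (chr2:28392708-28392801, plus strand): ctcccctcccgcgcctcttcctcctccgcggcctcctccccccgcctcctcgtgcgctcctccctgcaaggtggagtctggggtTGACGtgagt
JUN (chr1:58784153-58784182, minus strand): gagtctccatggTGACGggcgggcccgccc
JUNB (chr19:12791336-12791485, plus strand): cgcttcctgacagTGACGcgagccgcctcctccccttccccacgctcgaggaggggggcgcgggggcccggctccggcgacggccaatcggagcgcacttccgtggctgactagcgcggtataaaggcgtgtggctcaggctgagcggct
JUND (chr19:18281623-18281772, minus strand): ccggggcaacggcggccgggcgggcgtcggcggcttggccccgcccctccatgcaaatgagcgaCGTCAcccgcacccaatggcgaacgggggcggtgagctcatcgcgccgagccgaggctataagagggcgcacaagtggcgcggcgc
In JUND the half-site is read on the other strand. The half-site began 64, 60, 66, 123 and 137 bases before the RefSeq start in FOS, FOSB, FOSL2, JUN and JUNB. For JUN this places it inside the GENCODE transcript JUN-201, which begins further upstream, at 58784327 on the minus strand. Full CRE palindromes, TGACGTCA, occurred in 1.65% of all promoters and among the members in JUND alone, 200 bases before its start, where it overlaps a pair of half-sites and lies outside the stretch shown. The TATA letters TATAAA stood 33, 30 and 31 bases before the start of FOS, FOSB and JUNB (10.7% of all promoters). The AP-1 site TGACTCA (4.2% of all promoters) and the CArG box (1.16%) were not found in the members' windows.

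Isoproterenol raised FOS, FOSB, FOSL2 and JUNB in wildtype cells. These 4 were called in β-arrestin1/2 KO cells too, together with JUN and JUND, and no member passed the test in Gαs KO cells. By edgeR's quasi-likelihood test with Benjamini-Hochberg adjustment (threshold 0.05), 4 of 7 members were called higher in wildtype cells, where 0.412% of the genes tested were called higher and 0.0515% lower. In β-arrestin1/2 KO cells 6 of 7 were called higher, against 0.954% of genes higher and 0.174% lower. JUND changed alike in the 2 lines, with log2 fold changes of 0.35 (adjusted p = 0.0998) in wildtype and 0.36 (adjusted p = 0.049, edgeR) in β-arrestin1/2 KO cells. For JUN these were 0.67 (adjusted p = 0.27) and 1.01 (adjusted p = 0.019, edgeR). The difference between the 2 lines was called for neither gene in this fit. JUN lost its call in 5 and JUND in 6 of the 6 fits without a β-arrestin1/2 KO library. In Gαs KO cells 0 of 7 were called, by edgeR as by DESeq2's Wald test, and 1 member, FOS, had an unadjusted p under 0.05. There, 0% of genes were called higher and 0% lower. The lowest isoproterenol library exceeded the highest basal library for 6 of 7 members in wildtype and for 6 of 7 in β-arrestin1/2 KO libraries, and for FOS in Gαs KO cells. Over all genes tested this held for 4.85, 15.4 and 4.90%, respectively.

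**Figure D1:**
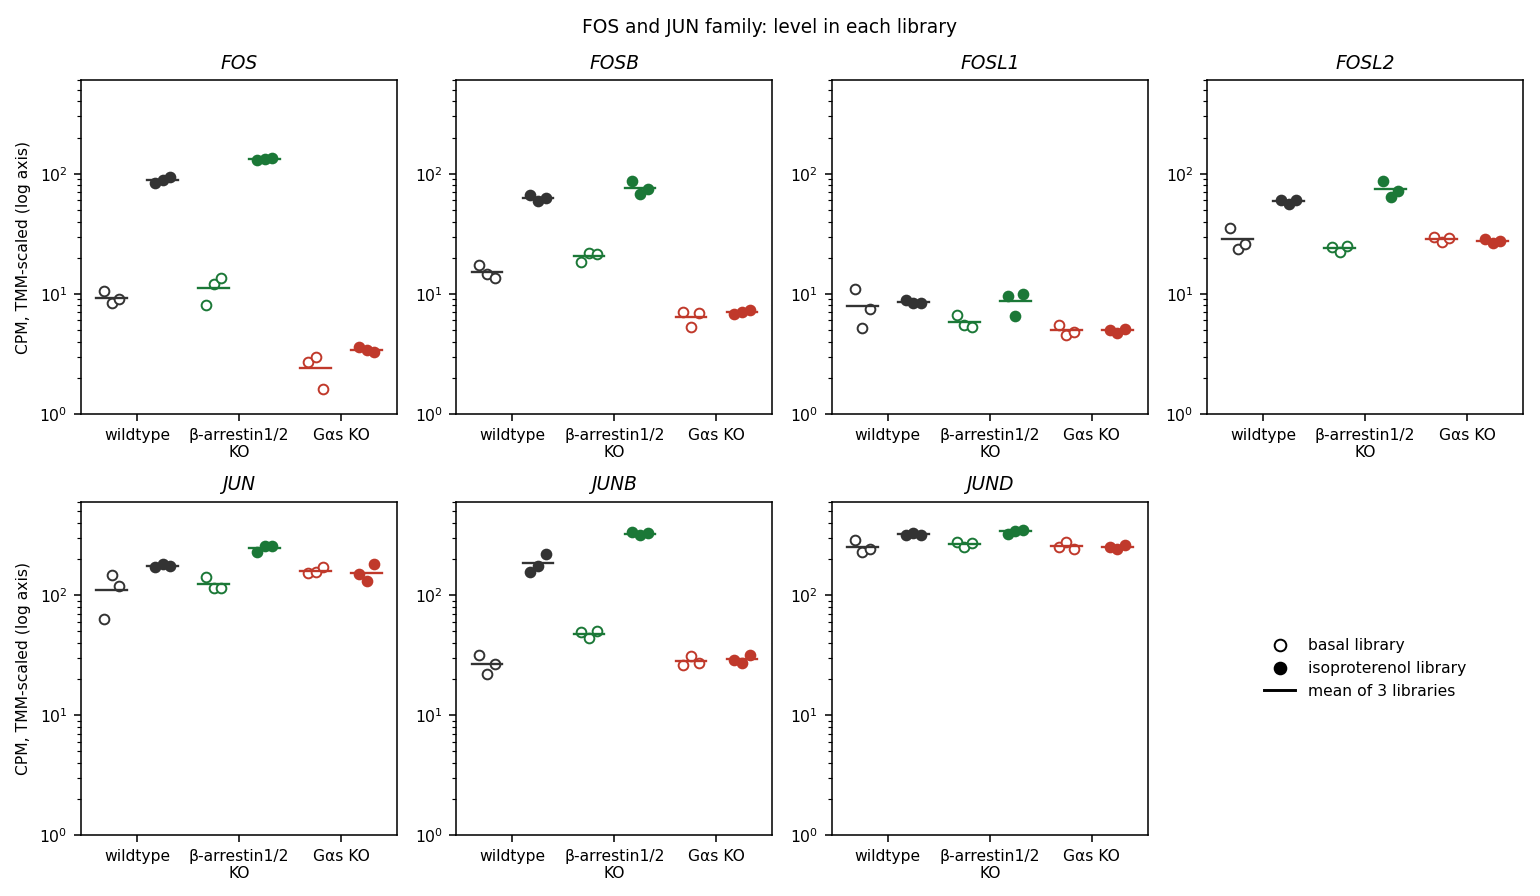
Level of each FOS and JUN family gene in the 18 libraries, in counts-per-million scaled by TMM on a log axis. Open points are basal and filled points isoproterenol libraries, bars are means of 3 libraries, and FOS spans the widest range, from 1.62 CPM in a Gαs KO basal library to 135 CPM in a β-arrestin1/2 KO isoproterenol library.

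FOS (ENSG00000170345, GRCh38 chromosome 14, 75278774 to 75282230) encodes c-FOS, the founding member of its family. Its basal wildtype libraries had 10.5, 8.39 and 9.003 CPM and the isoproterenol libraries 83.5, 88.1 and 94.8 CPM. The groups lay far apart, with a fold of 9.55 ± 0.61 over the basal mean (SD, n = 3) and a log2 fold change of 3.25 (SE 0.18, adjusted p = 8.6e-09, edgeR), and of 3.35 without wildtype basal replicate 1. In the β-arrestin1/2 KO line it went from 8.11, 12.1 and 13.4 CPM to 131, 132 and 135 CPM, a log2 fold change of 3.56 (SE 0.18, adjusted p = 1.6e-09, edgeR). The 3 stimulated libraries of this line were nearly equal, and each was above every wildtype library. In the Gαs KO line FOS had 2.68, 2.99 and 1.62 CPM at basal and 3.58, 3.38 and 3.27 CPM with isoproterenol. These groups did not overlap, but the log2 fold change of 0.50 (SE 0.21) did not pass adjustment (adjusted p = 1, edgeR), and it rests on 37 to 70 counts per library.

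FOSB (ENSG00000125740, chromosome 19, 45467995 to 45475179) encodes a close relative of c-FOS and, by alternative splicing, the shorter ΔFOSB. It had 17.3, 14.6 and 13.6 CPM in basal and 66.7, 59.2 and 62.6 CPM in stimulated wildtype libraries. The rise was 4.15 ± 0.25 fold (SD, n = 3), well under that of FOS, with a log2 fold change of 2.05 (SE 0.13, adjusted p = 6.5e-08, edgeR), and of 2.16 without wildtype basal replicate 1. β-Arrestin1/2 KO cells had 18.5, 22 and 21.4 CPM and then 87.4, 67.2 and 75.2 CPM, a log2 fold change of 1.89 (SE 0.13, adjusted p = 7.5e-08, edgeR). In Gαs KO cells the basal values of 7.07, 5.29 and 6.96 CPM and the stimulated values of 6.85, 7.11 and 7.31 CPM overlapped.

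FOSL2 (ENSG00000075426, chromosome 2, 28392448 to 28417312) encodes FRA-2, a FOS relative without the strong activation domain of c-FOS. Its levels were 35.3, 23.7 and 26.1 CPM in basal and 60.7, 55.6 and 60.5 CPM in stimulated wildtype libraries, which did not overlap. The log2 fold change was 1.05 (SE 0.13, adjusted p = 3.6e-04, edgeR), and 1.24 without wildtype basal replicate 1, the highest of the basal libraries. Fitted on the wildtype libraries alone, the same change was no longer called (adjusted p = 0.29, edgeR). In β-arrestin1/2 KO cells FOSL2 rose from 24.4, 22.5 and 25.2 CPM to 87.0, 64.0 and 71.8 CPM (log2 fold change 1.63, SE 0.13, adjusted p = 1.2e-06, edgeR). Gαs KO libraries ranged from 27.1 to 29.7 CPM at basal and from 26.3 to 28.8 CPM with isoproterenol, and these ranges overlapped.

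FOSL1 (ENSG00000175592, chromosome 11, 65892049 to 65900573, minus strand) encodes FRA-1, whose gene is itself a target of AP-1. It was the member with the fewest counts in stimulated wildtype cells, 153 to 160 per library. It had 10.9, 5.19 and 7.54 CPM in basal and 8.97, 8.47 and 8.35 CPM in stimulated wildtype libraries, so the stimulated libraries lay within the basal range. The log2 fold change was 0.12 (SE 0.22, adjusted p = 0.8, edgeR), and it was 0.43 without wildtype basal replicate 1 and -0.10 without basal replicate 2. In the β-arrestin1/2 KO line it had 6.63, 5.54 and 5.25 CPM and then 9.68, 6.51 and 9.98 CPM (log2 fold change 0.59, SE 0.22, adjusted p = 0.42, edgeR), with 1 stimulated library inside the basal range. With offsets for GC content and transcript length this change was 0.70 and was called (adjusted p = 0.025, edgeR).

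JUNB (ENSG00000171223, chromosome 19, 12791496 to 12793315) encodes a JUN protein with a weaker activation domain than c-JUN. Basal wildtype libraries had 31.5, 21.9 and 26.8 CPM, and stimulated libraries had 156, 176 and 219 CPM. The fold over basal was 6.87 ± 1.196 (SD, n = 3), the log2 fold change 2.78 (SE 0.14, adjusted p = 3.7e-09, edgeR) and 2.92 without wildtype basal replicate 1. JUNB was thus the JUN gene with the largest response, next to FOS in the family. In β-arrestin1/2 KO cells it went from 49.2, 43.9 and 50.04 CPM to 336, 314 and 328 CPM, a log2 fold change of 2.77 (SE 0.14, adjusted p = 1.6e-09, edgeR) and a fold of 6.83 ± 0.23. Both conditions were higher in this line, and the fold was almost the wildtype one. Gαs KO cells had 26.1, 31.3 and 27.3 CPM at basal and 28.7, 27.2 and 31.5 CPM with isoproterenol, close to the wildtype basal level throughout.

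JUN (ENSG00000177606, chromosome 1, 58780788 to 58784327, minus strand) encodes c-JUN, a strong activator and a common partner of c-FOS. It had 63.6, 147 and 120 CPM in basal and 172, 180 and 173 CPM in stimulated wildtype libraries. The lowest of these was wildtype basal replicate 1, in which JUN was far below its level in the other 2 basal libraries. The groups did not overlap, but the log2 fold change of 0.67 (SE 0.21, adjusted p = 0.27, edgeR) was not called, and it was 0.39 (adjusted p = 0.15) without that library and 0.93 (adjusted p = 0.045) without basal replicate 2. In the β-arrestin1/2 KO line JUN rose from 141, 114 and 114 CPM to 227, 255 and 258 CPM (log2 fold change 1.01, SE 0.21, adjusted p = 0.019, edgeR). That call was lost in 5 of the 6 fits that left out a library of this line, with adjusted p from 0.051 to 0.13. Gαs KO cells had 154, 157 and 170 CPM and then 151, 131 and 181 CPM, so stimulated libraries lay on both sides of the basal ones.

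JUND (ENSG00000130522, chromosome 19, 18279760 to 18281622, minus strand) encodes the JUN protein known for steady expression in resting cells. It had 290, 229 and 240 CPM in basal and 318, 332 and 317 CPM in stimulated wildtype libraries. The difference was small beside those of FOS and JUNB, with a log2 fold change of 0.35 (SE 0.083, adjusted p = 0.0998, edgeR), which was not called. It was called without wildtype basal replicate 1 (0.46, adjusted p = 1.3e-04), with GC and length offsets (0.47, adjusted p = 0.015), with these and a replicate block (0.48, adjusted p = 0.011) and by DESeq2's Wald test (adjusted p = 0.00899). β-Arrestin1/2 KO cells had 275, 251 and 269 CPM and then 325, 341 and 351 CPM, a log2 fold change of 0.36 (SE 0.083) that passed the test (adjusted p = 0.049, edgeR) but was lost in 6 of the 6 fits without a library of this line (adjusted p from 0.1 to 0.24). The mean GC content of that line was 49.8 to 50.1% in basal and 49.3 to 49.4% in stimulated libraries. With GC and length offsets the JUND change there was 0.65, and 7 of 7 members were called. Gαs KO libraries had 244 to 278 CPM at basal and 242 to 260 CPM with isoproterenol.

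**Figure D2:**
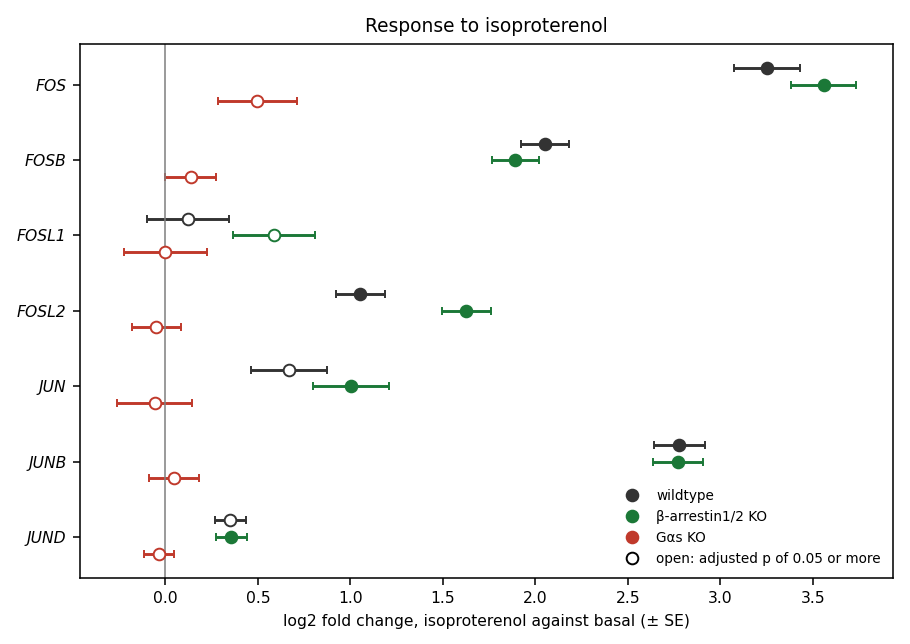
Response of each member to isoproterenol as log2 fold change against basal, with bars of 1 standard error from edgeR's fit. Filled points passed an adjusted p of 0.05, and in Gαs KO cells every point is open, the highest being FOS at 0.50.

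The question of whether β-arrestins or Gαs change these responses was addressed by testing the difference between the KO and the wildtype response directly. In the Gαs KO line the response was smaller for 4 of 7 members, where 0.161% of all genes had a called difference in either direction. The log2 differences were -2.76 for FOS (SE 0.27, adjusted p = 6.4e-05), -2.73 for JUNB (SE 0.19, adjusted p = 5.5e-07), -1.92 for FOSB (SE 0.19, adjusted p = 6e-05) and -1.10 for FOSL2 (SE 0.19, adjusted p = 0.018), all by edgeR's quasi-likelihood test. Without wildtype basal replicate 1 the 4 values were -2.85, -2.87, -2.02 and -1.29, in that order. The first 3 were called in each of the 24 alternative fits. The FOSL2 difference was lost in 7 of the 12 fits that left out a library, with values from -1.29 to -0.99. JUN (-0.73, SE 0.29) and JUND (-0.39, SE 0.12) had lower responses with adjusted p = 0.89 and 0.65, and the JUND difference was called without wildtype basal replicate 1 (-0.49, adjusted p = 0.0024), while that of JUN was then -0.45.

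In β-arrestin1/2 KO cells 0 of 7 members had a called difference from the wildtype response by edgeR or by DESeq2, while 0.168% of all genes did. An unadjusted p under 0.05 was found for 1 member, FOSL2, with a difference of 0.57 on the log2 scale (SE 0.19, adjusted p = 0.49, edgeR). It was 0.39 without wildtype basal replicate 1 (adjusted p = 0.096), and 0.54 and called with GC and length offsets and a replicate block (adjusted p = 0.014, edgeR). The difference was 0.31 for FOS (SE 0.23), 0.34 for JUN (SE 0.29) and -0.0069 for JUNB (SE 0.18), and that of JUNB took either sign across the alternatives, from -0.14 to 0.13. Without wildtype basal replicate 1 the FOS difference was 0.21 and that of JUNB -0.14, and the JUN difference was 0.61 and was called (adjusted p = 0.027, edgeR). Among the 24 alternative fits this was the only one in which the JUN difference was called.

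Basal levels were compared between the lines because a fold change does not show where a gene started. In Gαs KO cells FOS and FOSB were lower than in wildtype cells already at basal, with log2 differences of -1.94 (SE 0.20, adjusted p = 1.9e-06, edgeR) and -1.23 (SE 0.13, adjusted p = 3.8e-06, edgeR). FOS was thus 3.85-fold and FOSB 2.35-fold lower, and no Gαs KO library reached a wildtype basal library for either gene. Without wildtype basal replicate 1 the log2 differences were -1.85 and -1.12. FOSL1 was lower as well (-0.67, SE 0.22, adjusted p = 0.031, edgeR), but this was -0.36 and not called without wildtype basal replicate 1. JUN was higher by 0.54 (SE 0.20), just outside the threshold (adjusted p = 0.054, edgeR), and by 0.26 without that library (adjusted p = 0.078). This difference was called without wildtype basal replicate 2 (0.80, adjusted p = 0.0053), with upper-quartile scaling (adjusted p = 0.033), by DESeq2's Wald test (adjusted p = 0.0297) and with the filters of at least 1 count and of at least 10 counts in every library (adjusted p = 0.049 and 0.041, edgeR). FOSL2, JUNB and JUND did not pass the test. These 3 calls among 7 members stand against 31.3% of all genes called between the 2 lines at basal, so a call in itself sets few genes apart here.

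JUNB was, in basal β-arrestin1/2 KO cells, higher than in wildtype cells by 0.83 (SE 0.13, adjusted p = 1.7e-04, edgeR) and FOSB by 0.45 (SE 0.13, adjusted p = 0.012, edgeR), 2 of 7 members against 33.6% of all genes. Every JUNB basal library of this line exceeded every wildtype one. The FOSB difference was lost in the fit with the basal libraries of these lines only (adjusted p = 0.12) and without β-arrestin1/2 KO basal replicate 2 (0.41, adjusted p = 0.0504). Without wildtype basal replicate 1 the JUNB and FOSB differences were 0.97 and 0.56, and JUND was called as well (0.18, adjusted p = 0.013, edgeR).

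With isoproterenol, 2 of 7 members were called between β-arrestin1/2 KO and wildtype cells, where 30.0% of all genes were. JUNB was higher by 0.83 (SE 0.13, adjusted p = 1.4e-04, edgeR), as at basal, and FOS by 0.58 (SE 0.16, adjusted p = 0.01, edgeR). FOSL2 (0.33, SE 0.13), FOSB (0.29, SE 0.12) and JUN (0.49, SE 0.20) were also higher in the mean, with adjusted p = 0.063, 0.086 and 0.079. In the fit on these 2 groups alone all 5 of these genes were called. Stimulated Gαs KO cells had 6 of 7 members lower than stimulated wildtype cells, against 29.9% of all genes called in either direction. FOS was 25.98-fold lower (log2 difference -4.70, SE 0.19, adjusted p = 4.4e-11, edgeR), FOSB 8.86-fold (-3.15, SE 0.14) and JUNB 6.30-fold (-2.66, SE 0.14). FOSL2 was lower by 1.09 and FOSL1 by 0.79 on the log2 scale, values of -1.09 (SE 0.13) and -0.79 (SE 0.22), and JUND was at -0.36 (SE 0.083). JUN alone did not pass (-0.18, SE 0.20, adjusted p = 0.55, edgeR).

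**Figure D3:**
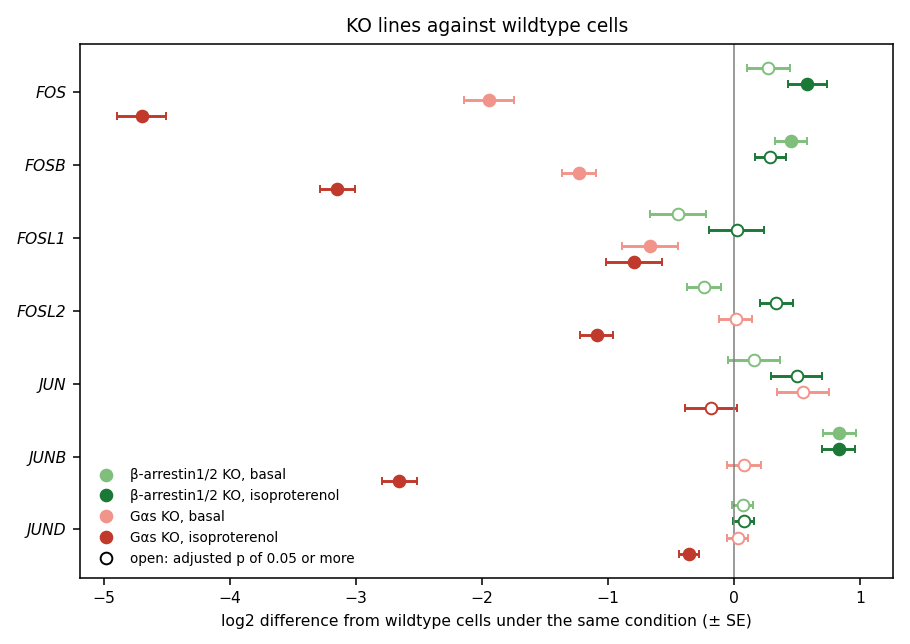
Log2 difference of each member between a KO line and wildtype cells under the same condition, with bars of 1 standard error and filled points for an adjusted p under 0.05 (edgeR). FOS in Gαs KO cells lies at -1.94 at basal and -4.70 with isoproterenol, and JUNB in β-arrestin1/2 KO cells at 0.83 in both conditions.

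Levels of different genes were compared as transcripts-per-million (TPM), which divides by transcript length. For JUND the sum includes JUND-202, a transcript listed at 500 bases. In basal wildtype libraries JUND-202 had 430 to 765 estimated counts, against 3159 to 4563 for the longer JUND-201. It still made up 38.7 ± 8.53% of JUND TPM there (SD, n = 3). The JUND levels and shares below, and the summed TPM of the family, depend on that short transcript. At basal JUND was the most abundant member in each line, with 336 ± 23.1 TPM in wildtype cells (SD, n = 3), followed by JUN at 57.0 ± 26.1 and JUNB at 25.9 ± 2.61 TPM. FOSL1 (9.76 ± 3.63), FOSB (8.99 ± 1.25), FOS (8.28 ± 0.82) and FOSL2 (7.48 ± 0.84 TPM) followed, and each neighbouring pair among these 4 overlapped between libraries. With isoproterenol the wildtype order became JUND (428 ± 19.1), JUNB (191 ± 29.8), JUN (93.5 ± 3.03), FOS (89.4 ± 3.66), FOSB (36.0 ± 3.19), FOSL2 (16.8 ± 0.50) and FOSL1 (11.1 ± 0.52 TPM). JUN and FOS overlapped, and each other pair of neighbours was separate in all 3 libraries. The same order held in stimulated β-arrestin1/2 KO cells, with JUNB at 351 ± 10.9, FOS at 133 ± 0.81 and JUND at 501 ± 45.9 TPM. In the Gαs KO line FOS had the lowest mean in both conditions, at 2.25 ± 0.61 and 3.38 ± 0.61 TPM, but with isoproterenol its libraries overlapped those of FOSB. FOSL2 led the FOS genes of this line at 8.31 ± 0.42 and 8.61 ± 1.38 TPM.

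The make-up of the family was compared within each library. Summed TPM of the 7 members was 435, 489 and 437 in basal and 853, 868 and 873 in stimulated wildtype libraries. JUND made up 77.8, 73.3 and 71.4% of this sum at basal and 51.8, 50.1 and 46.5% with isoproterenol, and the 2 sets of libraries were separate. The size of the share depends on the measure. By read counts it was 63.1, 50.9 and 54.2% at basal and 36.7, 36.9 and 33.9% with isoproterenol. In the β-arrestin1/2 KO line the JUND share went from 67.3, 71.9 and 70.3% to 39.3, 44.4 and 41.6%. In Gαs KO cells it was 71.3, 71.2 and 69.1% and then 70.3, 71.9 and 68.8%, and here the libraries overlapped.

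The FOS-type genes together (FOS, FOSB, FOSL1 and FOSL2) took 9.51, 5.92 and 7.61% of the family's TPM in basal and 18.02, 17.6 and 17.6% in stimulated wildtype libraries. The difference was 10.0 percentage points (two-sided exact permutation p = 0.1, the smallest that 3 against 3 libraries can give, so no comparison of this kind can pass 0.05). It was 10.96 points without wildtype basal replicate 1. In β-arrestin1/2 KO cells the share was 7.10, 7.52 and 7.75% and then 18.8, 16.4 and 17.4%, again a difference of 10.1 points (exact permutation p = 0.1). In the Gαs KO line it was 5.19, 4.21 and 4.48% and then 5.44, 4.78 and 4.48%, a difference of 0.275 points (exact permutation p = 0.5). Stimulated libraries were above basal ones in 2 of the lines, and the difference between lines was not tested.

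**Figure D4:**
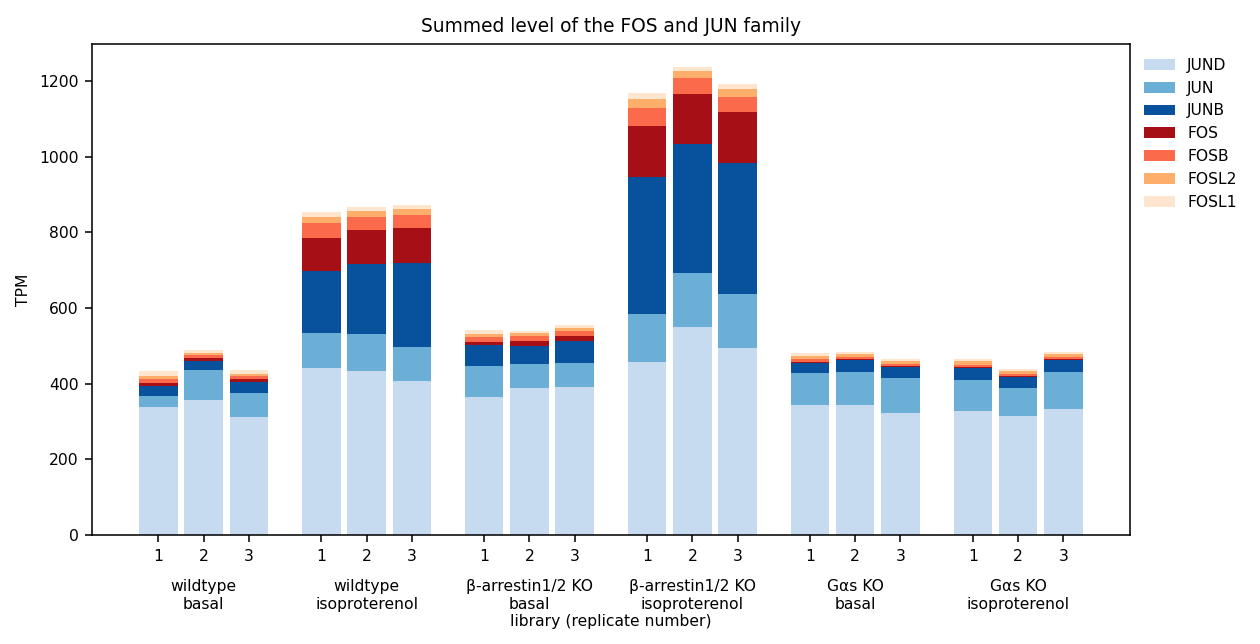
Summed TPM of the 7 genes in each library, stacked by gene, with JUN genes in blue and FOS genes in red to orange. Stimulated wildtype libraries reach 853 to 873 TPM and stimulated β-arrestin1/2 KO libraries 1167 to 1237 TPM, and the Gαs KO libraries stay between 438 and 485 TPM.

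The ratios of FOS to FOSB and of JUNB to JUN inside a library, where depth cancels, are given as a description with no test, since the pairs were chosen with the responses known. The FOS to FOSB ratio of TPM was 0.884, 0.909 and 0.98 in basal wildtype libraries and 2.15, 2.66 and 2.69 with isoproterenol, and it went from 0.588, 1.03 and 1.09 to 2.80, 3.19 and 3.38 in β-arrestin1/2 KO cells. In Gαs KO cells the ratio was 0.398, 0.768 and 0.365 and then 0.905, 0.832 and 0.656, and these sets overlapped. The JUNB to JUN ratio was 0.964, 0.291 and 0.434 in basal wildtype libraries, where replicate 1 stood out, and 1.77, 1.91 and 2.46 with isoproterenol. It was 0.679, 0.751 and 0.855 and then 2.88, 2.40 and 2.47 in β-arrestin1/2 KO cells and 0.311 to 0.388 and 0.339 to 0.405 in Gαs KO cells.

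FOSB transcripts were examined separately because the gene yields proteins that differ in their C terminus. GENCODE lists 13 FOSB transcripts in the file, and 12 had a count in some library. FOSB-201 (338 codons) encodes full-length FOSB. In FOSB-211 (237 codons) and FOSB-212 (188 codons), a 140-base intron inside the last exon is removed (chr19:45472707-45472846, plus strand). This is the splice that shifts the reading frame to an early stop and yields ΔFOSB. The coding sequence of FOSB-212 is listed from 45470650, against 45468587 for FOSB-201 and FOSB-211. As listed, FOSB-212 therefore also lacks the first codons of full-length FOSB. FOSB-213 lacks the 140 bases too, but it is listed with 291 codons, and whether the same shift applies to it was not examined. FOSB-213 had a count in 1 library (19.4, Gαs KO basal replicate 2) and is included where transcripts lacking the intron are summed. The intron's sequence is shown because it is what separates the 2 forms, with the splice site letters GT and AG in capitals.
FOSB intron: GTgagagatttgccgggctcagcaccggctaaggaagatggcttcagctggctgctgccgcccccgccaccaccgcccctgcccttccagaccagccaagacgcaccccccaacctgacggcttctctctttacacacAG
A further form, FOSB-210 (299 codons), keeps this intron in its RNA but starts exon 2 117 bases later, leaving out the following bases (chr19:45470629-45470745, plus strand), with the AG before the alternative 3′ splice site in capitals.
FOSB exon 2 start: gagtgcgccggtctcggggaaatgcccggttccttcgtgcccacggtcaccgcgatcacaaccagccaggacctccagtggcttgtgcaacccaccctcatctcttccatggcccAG
Counts of single transcripts are Salmon's estimates of how reads shared by several transcripts divide, and the error of that division is not in the deposited values.

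In the fit over 60987 transcripts, 0 FOSB transcripts were called by edgeR in any line. An unadjusted p under 0.05 was found for 3 of the 7 tested in wildtype cells, for 4 with β-arrestin1/2 KO and for 1 with Gαs KO. The share of all transcripts at that threshold is not given. The 1 with Gαs KO was FOSB-210, which rested on 43.9 estimated counts in isoproterenol replicate 2, with 0 in each other Gαs KO library. DESeq2's Wald test called 1, FOSB-212 in β-arrestin1/2 KO cells (log2 fold change 1.87, adjusted p = 0.041). Over all transcripts 0.0705% were called higher in wildtype cells, 0.148% with β-arrestin1/2 KO and 0% with Gαs KO. FOSB-201 had 169, 194 and 174 estimated counts in basal and 634, 497 and 785 in stimulated wildtype libraries (log2 fold change 1.81, SE 0.80, adjusted p = 0.69, edgeR). In the Gαs KO line it had 0, 73.0 and 123 and then 112, 75.2 and 54.2 counts. A count of 0 beside 123 in the same group shows how much the estimate for 1 transcript varied between replicates.

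FOSB-210 had few or no counts at basal and had counts in each stimulated library of wildtype and β-arrestin1/2 KO cells. It had 0, 0 and 8.72 estimated counts in basal and 289, 258 and 181 in stimulated wildtype libraries, and 0, 5.93 and 12.6 and then 183, 181 and 108 counts in β-arrestin1/2 KO cells. The groups were separate in both lines, although the fitted changes were not called (adjusted p = 0.6 and 0.79, edgeR). Its share of FOSB TPM was 0, 0 and 3.23% in basal and 21.7, 20.9 and 14.7% in stimulated wildtype libraries. This share is a description with no test, since the transcript was picked from those of FOSB with its counts known. In Gαs KO cells it had a count in 1 of 6 libraries, 43.9 in isoproterenol replicate 2.

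FOSB-212 lacks the 140-base intron and, as listed, begins its coding sequence later than FOSB-201. It had 90.5, 43.5 and 25.5 estimated counts in basal and 119, 231 and 131 in stimulated wildtype libraries, which did not overlap (log2 fold change 1.63, SE 0.56, adjusted p = 0.62, edgeR). Transcripts that lack the 140-base intron together had 6.10, 2.60 and 2.54 TPM at basal and 10.3, 7.53 and 7.25 TPM with isoproterenol in wildtype cells, while those that keep it had 3.82, 5.70 and 5.58 and then 28.5, 24.4 and 26.1 TPM. In these wildtype libraries the level of transcripts lacking the intron did not overlap between conditions. Their share of the 2 forms was 61.5, 31.3 and 31.2% at basal and 26.5, 23.6 and 21.8% with isoproterenol. The difference of -17.4 percentage points (exact permutation p = 0.1) was -7.34 without wildtype basal replicate 1, which had the highest share. In the β-arrestin1/2 KO line these transcripts had 5.00, 2.84 and 3.98 TPM and then 7.76, 8.86 and 3.41 TPM, which overlapped (exact permutation p = 0.3). Their share was 38.2, 21.8 and 30.3% and then 16.6, 21.7 and 8.71%, with the lowest basal and the highest stimulated library nearly equal. In the Gαs KO line it ran from 34.6 to 57.4% and from 16.9 to 44.8%, with overlap.

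**Figure D5:**
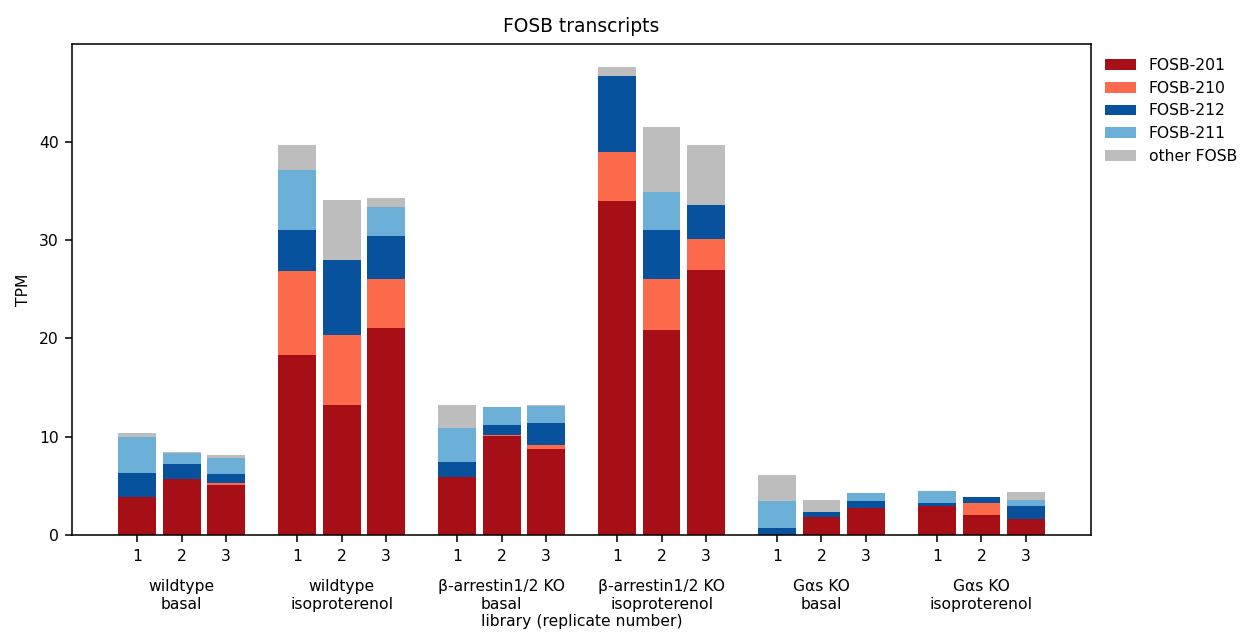
TPM of FOSB transcripts in each library, stacked, with transcripts of the ΔFOSB type (FOSB-212 and FOSB-211) in blue, full-length FOSB-201 in dark red and FOSB-210 in light red. FOSB-210 has 5.02 to 8.60 TPM in stimulated wildtype libraries and 0.26 TPM or less in basal wildtype libraries.

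Among the transcripts of the other members, FOS-201 (380 codons), FOSL2-201 (326 codons) and JUNB-201 (347 codons, the gene's 1 transcript) were called in both responding lines. FOS-201 rose by 3.21 and 3.59 on the log2 scale, respectively in wildtype cells and the β-arrestin1/2 KO line (SE 0.24 in each, adjusted p = 1.8e-05 and 2.5e-06, edgeR). FOS-204 (170 codons) is listed with 0 counts in the 3 basal wildtype libraries and with 71.7 to 77.8 in the stimulated ones, and its change was not called (adjusted p = 0.23, edgeR). JUND has 2 transcripts, and the shorter, JUND-202, made up 38.7 ± 8.53% of JUND TPM in basal and 32.0 ± 3.10% in stimulated wildtype cells (SD, n = 3), ranges that overlapped. FOSL1-201 had 45.0 to 83.2 estimated counts in basal and 87.9 to 122 in stimulated wildtype libraries (log2 fold change 0.52, SE 0.30, adjusted p = 0.74, edgeR). These counts are not scaled for depth, so they show no separation of the groups. The lowest stimulated value came from replicate 2, with 20730540 counts in all, against 18857678 and 18905441 in basal replicates 2 and 3.

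Other genes of the AP-1 pathway were taken from 5 lists. Of 16 tested bZIP genes that can pair with or stand beside FOS and JUN proteins, 2 were called higher in wildtype cells, as were 3 with β-arrestin1/2 KO, with median log2 fold changes of 0.137 and 0.16 against -0.0022 and -0.0083 over all genes. ATF3, a stress-induced bZIP repressor, rose by 0.89 (SE 0.080, adjusted p = 7.7e-06, edgeR, but 0.11 with only the groups compared) in wildtype and by 1.87 (SE 0.082, adjusted p = 3.8e-10) in β-arrestin1/2 KO cells, and its response was larger in the latter by 0.98 (SE 0.11, adjusted p = 8.9e-04) and smaller in Gαs KO cells by 0.77, a value of -0.77 (SE 0.11, adjusted p = 0.0041). MAFK, a small MAF protein, rose by 0.65 in wildtype cells (adjusted p = 0.04999, edgeR, which 5 of 6 fits without a library lost) and by 0.91 in β-arrestin1/2 KO cells (adjusted p = 0.0015). ATF4, the effector of the integrated stress response, rose by 0.65 in β-arrestin1/2 KO cells (adjusted p = 0.0071, edgeR), while in wildtype cells it was at -0.51, called by DESeq2 and not by edgeR. The rise of ATF4 was lost in 3 of the 6 fits without a library of its line (adjusted p from 0.051 to 0.058), and the wildtype value was called without wildtype basal replicate 1 (-0.51, adjusted p = 0.044, edgeR).

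Of 19 tested factors and coactivators that act on FOS and JUN promoters, 0 were called by edgeR in wildtype cells (6 at an unadjusted p under 0.05, and 1, CREM, by DESeq2) and 1 in β-arrestin1/2 KO cells, CREM (0.56, adjusted p = 0.012, edgeR), which encodes CRE-binding activators and repressors and which had 0.44 without a call in wildtype cells. The CREM call was lost in 4 of the 6 fits without a library of the β-arrestin1/2 KO line (adjusted p from 0.051 to 0.1) and with length-scaled counts (adjusted p = 0.097). Of 22 tested kinases and ubiquitin ligases 0 were called by edgeR or DESeq2 in either line, with 0 and 2 at an unadjusted p under 0.05. Of 14 tested genes known as AP-1 targets, 0 were called by edgeR in wildtype cells (6 at an unadjusted p under 0.05, and 1, CCND1, by DESeq2) and 2 in β-arrestin1/2 KO cells, CCND1 (cyclin D1, 0.37, adjusted p = 0.0036) and VEGFA (0.58, adjusted p = 0.0034, edgeR). Both were lost with length-scaled counts (adjusted p = 0.075 and 0.203). In wildtype cells both were called with GC and length offsets (0.30 and 0.36, adjusted p = 0.0037 and 0.018) and without wildtype basal replicate 1 (0.24 and 0.38, adjusted p = 0.017 and 0.043, edgeR). Of 6 tested other immediate early genes, EGR3 (1.93, adjusted p = 9.9e-04) and IER3 (0.97, adjusted p = 0.011) were called in wildtype cells by edgeR, and both calls were lost with only the groups compared (adjusted p = 0.23 and 0.35). That of IER3 was also lost in 2 of the 6 fits without a wildtype library (adjusted p = 0.053 and 0.0625). IER2 had 0.52 without a call there (adjusted p = 0.088, edgeR), and it was called by DESeq2 (adjusted p = 0.0073), with length-scaled counts (adjusted p = 0.015), with GC and length offsets (0.68, adjusted p = 2.7e-07) and without wildtype basal replicate 1 (0.72, adjusted p = 2.1e-05). The β-arrestin1/2 KO line had EGR2 (2.58, adjusted p = 0.0027), EGR3 (1.88, adjusted p = 4.2e-04) and IER2 (1.38, adjusted p = 3e-06) called (edgeR), and DESeq2 called EGR1 there as well. EGR2 and EGR3 were low, with group means of at most 3.95 and 6.89 CPM. Median log2 fold changes were -0.046 and 0.022 for the promoter factors, 0.066 and 0.068 for the kinases and ligases, 0.058 and 0.43 for the targets and 0.75 and 0.97 for the other immediate early genes, in the order wildtype and β-arrestin1/2 KO. In that order, 9 and 11 of the 19 promoter factors and 8 and 11 of the 14 targets had a log2 fold change above 0. The counts at an unadjusted p cover both directions. The share of all genes at that threshold is not given, so they have no background beside them. Gαs KO cells had 0 called genes in the 5 lists by edgeR, with 1 of the bZIP genes and 2 of the immediate early genes at an unadjusted p under 0.05, and DESeq2 called 1, EGR1. No gene of these lists was called lower by edgeR in any of the 3 responses.

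Genes whose level across the 18 libraries was most like that of a member were described by Pearson's r of log2 CPM. The points share 6 groups and their treatment, so a high r says mainly that 2 genes follow the same groups. FOS and FOSB were nearest to each other (r = 0.986), followed for FOS by RHOB (0.978) and PCK1 (0.972). JUNB was nearest to BTG2 (0.993), DUSP1 (0.989) and SIK1 (0.978), and FOSL2 to CSRNP1 (0.98), ATF3 (0.964) and GEM (0.949). BTG2 had 53.5 ± 1.72 CPM in basal wildtype and 82.6 ± 1.16 in basal β-arrestin1/2 KO cells (SD, n = 3), and 224 ± 29.95 and 452 ± 11.7 with isoproterenol, which follows JUNB in its higher level in β-arrestin1/2 KO cells in both conditions. JUND was nearest to PIM1 (0.939), MAFK (0.937) and JUNB (0.933). JUN was nearest to ADAMTS5 (0.924), SELENOK (0.889) and SNX16 (0.886), and FOSL1 to PER2 (0.894), AVPI1 (0.889) and GABARAPL1 (0.887). Within the family, r was lowest between FOSL1 and JUN (0.0544).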

How the data were processed

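Paired-end RNA-Seq of 3 HEK293 lines under 2 conditions, with 3 libraries per group, was read from 1 table. The authors deposited expected counts per transcript from Salmon 1.7.0, without normalization, and used DESeq2 for testing. The index was not given in the sources used here. Transcripts (184844, of which 161798 matched) were joined by Ensembl identifier to GENCODE release 29 (GRCh38) and summed to genes, keeping 92.9 to 93.8% of counts, and sums were rounded. No column was left unmapped. Depth ran from 17908597 to 25019834 counts per library, with a median of 20419460. TPM used annotated transcript lengths, not Salmon's effective lengths.

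edgeR 4.0.16 in R 4.3.3 (TMM, filterByExpr by group, quasi-likelihood fit with 6 group coefficients on 18 libraries, Benjamini-Hochberg adjusted p under 0.05) was the test, and the SE is the log2 fold change divided by the square root of F. A fold over basal divides each isoproterenol library by the basal mean. Other tools were DESeq2 1.42.0, limma 3.58.1, Python 3.11.15, numpy 2.4.6, pandas 2.3.3, scipy 1.17.1 and matplotlib 3.10.9. Single values had exact two-sided permutation tests. The pipeline was tested on simulated data. Alternatives were DESeq2's size factors and Wald test, upper-quartile scaling, other filters (at least 1 count, or 10 counts in every library), a threshold of 0.01, only the groups compared, a replicate block, each library left out, length-scaled counts, offsets for GC content and length (lowess, span 0.3), and unmatched transcripts kept.

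The genes named are the 7 members with their transcripts, GNAS, ARRB1 and ARRB2, members of the lists called in at least 1 response, and the 3 genes with the highest r for each member (log2 CPM, prior count 2). Members and lists were chosen with earlier results of these data known. The labels call the replicates biological and do not say what separated them (cultures, transfections or days), so p-values measure the spread between these libraries.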

Additional observations from a re-analysis of the deposited data

Results flagged for a closer look

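The response to isoproterenol differed between Gαs KO and wildtype cells, by the test of the difference itself (edgeR's quasi-likelihood test), for 4 members. The log2 difference was -2.76 for FOS, -2.73 for JUNB, -1.92 for FOSB and -1.10 for FOSL2. For FOS, JUNB and FOSB each of the 3 stimulated wildtype libraries was above each basal one, and the Gαs KO values of JUNB and FOSB overlapped between conditions. The FOSL2 difference did not pass in 7 of the 12 fits that left out a library.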

How the results depend on the processing

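Of 1192 refits of 63 single-gene changes named in the text, 1071 kept direction and call, 69 lost and 44 gained the call, and 8 changed sign. The calls for FOS, FOSB and JUNB in the responses of both the wildtype and the β-arrestin1/2 KO line and in the difference between Gαs KO and wildtype cells held in each alternative. The sign changed for FOSL1 in wildtype cells (-0.10 to 0.43 with a library left out) and for the JUNB response of the β-arrestin1/2 KO line minus that of wildtype cells (0.046 with GC and length offsets, 0.054 with these and the replicate block, -0.14 to 0.13 with a library left out), none of them called.

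The number of members called in the response was 3 to 5 in wildtype, 4 to 7 in β-arrestin1/2 KO and 0 in Gαs KO cells across the alternatives. For the difference of β-arrestin1/2 KO from wildtype cells it became 1 (FOSL2) with GC and length offsets and the replicate block, and 0 to 1 with a library left out (1, JUN, without wildtype basal replicate 1). At basal, β-arrestin1/2 KO against wildtype cells gave 1 with a threshold of 0.01, 1 with only the groups compared, 1 with length-scaled counts and 1 to 3 with a library left out (1 without β-arrestin1/2 KO basal replicate 2). Under isoproterenol the same lines gave 1 with a threshold of 0.01, 5 with only the groups compared, 4 with GC and length offsets, 4 with these and the replicate block and 2 to 4 with a library left out (4 without β-arrestin1/2 KO isoproterenol replicate 2). DESeq2's Wald test called 1 FOSB transcript in β-arrestin1/2 KO cells where edgeR called 0. The FOS-type share differed by 11.8 points in β-arrestin1/2 KO cells when read counts replaced TPM. The cause of these changes was not tested.

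The replicate block, a fit with the replicate number as a term, gave 4, 5 and 0 members in the responses of wildtype cells, the β-arrestin1/2 KO line and the Gαs KO line, and 4 for the difference of Gαs KO from wildtype cells. It lost JUND in β-arrestin1/2 KO cells (adjusted p = 0.079) and called FOSL2 between the stimulated β-arrestin1/2 KO and wildtype cells (adjusted p = 0.024). The numbers were not taken to pair libraries, since the correlation of same-numbered libraries' departures from their group means lay between -0.0993 and 0.0766. Depth limits FOS in Gαs KO cells, FOSL1 and single FOSB transcripts most, where some libraries had under 100 counts.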
